A study of Rattus norvegicus with 12 samples.

Results

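Acetylcholine signalling was followed through 10 genes: the synthesis and transport genes Chat, Slc5a7 and Slc18a3, the esterase gene Ache, the nicotinic receptor subunit genes Chrna4, Chrna7 and Chrnb2, and the muscarinic receptor genes Chrm1, Chrm2 and Chrm3. They were chosen by name, with earlier results of these data known. A probe counted if it was listed with exactly 1 gene symbol, and the brightest probe by its mean over 12 arrays was to stand for a gene with several. This choice was never needed, since 0 of the genes had more than 1 such probe. Of the 10 genes, 9 were measured among 18166 genes in all, and Ache was not analysed here.

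The samples were inferior colliculi, the auditory centre of the midbrain, of SD rats (Sprague-Dawley). Deaf rats had the right cochlea ablated and were taken 2 weeks later. Control rats had a sham operation, an incision behind the ear that left the bulla undrilled, and were also taken after 2 weeks. Each operation was done on 20 rats. The 4 groups of 3 arrays were the left colliculus of deaf rats, the left colliculus of control rats, the right colliculus of deaf rats and the right colliculus of control rats. Both sides of a deaf rat come after loss of the same right ear, and the left colliculus is the one opposite to it. The labels give neither age nor sex. How many rats stand behind an array is not stated either, so the p-values measure the spread between arrays, which may be technical. Some labels name hippocampus, and those of deaf samples a noise group, whereas titles, source names and tissue entries name the inferior colliculus and ablation.

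The labelled tissue was set against marker genes. Of 10 genes of the tectum and collicular neurons, 9 had a mean above 5.34 log2 intensity, the median over all probes and arrays. Their means ran from 5.22 (Pou4f1) to 10.1 (Gad1, a GABA synthesis gene). Of 8 measured genes of hippocampus and cortex, 3 had a mean above that median, namely Wfs1, Prox1 and Fibcd1. The means of these 8 ran from 3.40 (Neurod6, of excitatory forebrain neurons) to 7.02 (Wfs1). Probes differ in brightness for the same amount of RNA, so these levels describe the arrays and do not identify the tissue. Arrays were correlated at 0.982 to 0.993. Right control 3 lay farthest out on the first principal component, which held 21.1% of the variance. The right control arrays also stood apart in cerebellar markers: the summed log2 level of 9 such genes was 41.77 to 41.94 in right deaf arrays, against 44.82 to 52.57 in right control arrays, highest in right control 3. The right groups lay apart in the hippocampal and microglial lists too, and overlapped in the sums of the other measured marker lists. Tectal genes, for example, summed to 77.33 to 78.32 in right deaf arrays, against 77.17 to 79.28 in right control arrays. How often sums of other gene lists lie apart was not tested. The sum of 8 hippocampal and cortical genes was 39.42 to 41.35 in right deaf arrays, against 41.38 to 42.25 in right control arrays, with 8 of 8 means lower in deaf rats. That of 6 microglial genes was 39.32 to 40.29 in right deaf arrays, against 40.47 to 41.03 in right control arrays, with 6 of 6 lower.

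Acetylcholine is made from choline by choline acetyltransferase, loaded into vesicles by a dedicated transporter, released, and broken down by acetylcholinesterase, after which choline is taken back up into the terminal. It acts on nicotinic receptors, which are ion channels built from several subunits, and on muscarinic receptors, which act through G proteins. The inferior colliculus receives its cholinergic input mainly from cell bodies in the pontomesencephalic tegmentum, and most of its own neurons carry receptors and do not make the transmitter. In tissue of this kind, fewer cells of a type and less RNA per cell cannot be told apart.

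The largest differences among these genes lay in Slc5a7 and Slc18a3, which both had lower means in deaf rats on both sides. Between deaf and control rats, those of Chat and the receptor genes were smaller, the largest being -0.23 for Chrna4 on the right. No difference passed the test. With limma, 0 of 9 genes were called in any of the 6 comparisons at an adjusted p of 0.05, and 0% of all 18166 genes were called in each of them. At an unadjusted p under 0.05, 0 of 9 passed on the left (3.69% of all genes), 2 of 9 on the right (4.31%) and 2 of 9 in the mean of both sides (4.53%). These were Slc5a7 and Slc18a3 both times, both lower in deaf rats, and 2.19% of all genes were lower at that level on the right and 2.52% in the mean. For the difference between the sides' changes 0 of 9 passed at that level (3.42% of all genes), as for left against right in deaf rats (3.34%) and in control rats (4.95%). The smallest adjusted p of any of the 9 genes over the 6 comparisons was 0.942, for the left-right difference of Chrna7 in control rats.

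The sequence before the start of the 3 presynaptic genes is shown because Chat and Slc18a3 share a locus and because Slc18a3 and Slc5a7 had the highest Pearson correlation of the 36 gene pairs. Slc18a3 lies inside the Chat gene, and the start sites are 602 bases apart. Each window holds 250 bases before and 50 after the start site, from RefSeq on the rat build GRCr8, read 5′ to 3′ on the gene's strand. All 3 genes lie on the minus strand: Chat at chr16:7723367-7723666, Slc18a3 at chr16:7722765-7723064 and Slc5a7 at chr9:7953460-7953759. Capitals mark matches to 4 motifs, searched on both strands.
Chat: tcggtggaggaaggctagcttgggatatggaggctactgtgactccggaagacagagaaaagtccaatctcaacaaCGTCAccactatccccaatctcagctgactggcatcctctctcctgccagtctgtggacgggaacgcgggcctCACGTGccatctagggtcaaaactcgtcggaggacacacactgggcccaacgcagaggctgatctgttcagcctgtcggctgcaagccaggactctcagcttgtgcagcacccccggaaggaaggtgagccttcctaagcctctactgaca
Slc18a3: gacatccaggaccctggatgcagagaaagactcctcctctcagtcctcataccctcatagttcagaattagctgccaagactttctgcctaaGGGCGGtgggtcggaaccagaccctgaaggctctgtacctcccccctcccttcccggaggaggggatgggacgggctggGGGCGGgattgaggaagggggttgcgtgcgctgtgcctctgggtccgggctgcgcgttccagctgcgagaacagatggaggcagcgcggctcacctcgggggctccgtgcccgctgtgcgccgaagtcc
Slc5a7: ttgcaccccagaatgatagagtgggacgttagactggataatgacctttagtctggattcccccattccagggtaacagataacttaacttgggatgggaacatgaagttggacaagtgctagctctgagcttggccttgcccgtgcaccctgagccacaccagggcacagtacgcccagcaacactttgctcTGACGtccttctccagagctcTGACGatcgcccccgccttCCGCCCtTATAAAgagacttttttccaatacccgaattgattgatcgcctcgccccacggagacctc

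The motifs were a TATA box, a GC box, a half-site of the cAMP response element and an E-box. The Slc5a7 window held a match to the TATA box, TATAAA, with its first base at -10 from the start site. Of 33469 rat windows of the same length, 14.2% held this motif. The Slc5a7 window was the only one of the 10 genes' windows with this match. It also held the half-site of the cAMP response element, TGACG, in 2 places, and a GC box on the opposite strand. The Slc18a3 window held the GC box GGGCGG in 2 places, a motif found in 33.1% of all windows and in 8 of the 10 genes' windows. The Chat window held the E-box CACGTG, found in 6.42% of all windows and in 3 of 10. It held the half-site on the opposite strand as well, a motif found in 21.2% of all windows and in 5 of 10. None of these motifs was in all 3 windows, and no 2 of the matches shown overlap. A match describes letters only and was not set against any measure of binding.

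Slc5a7 (Entrez Gene 85426) encodes the high-affinity choline transporter, which returns choline to the terminal and limits the rate of acetylcholine synthesis. In the left colliculus its log2 intensity was 4.62, 4.55 and 4.84 in deaf rats, against 5.68, 5.22 and 4.97 in control rats. All 3 left deaf arrays lay below all 3 left control arrays. In the right colliculus it was 4.31, 5.01 and 4.57 in deaf rats, against 6.41, 5.53 and 4.53 in control rats. Here the groups overlapped, since right control 3 fell among the deaf arrays, and right control 1 was the highest of all 12.

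On the left the Slc5a7 mean was 4.67 ± 0.15 in deaf and 5.29 ± 0.36 in control rats (SD, n = 3 each), a difference of -0.62 log2 units (SE 0.369, limma adjusted p = 0.9996). The right mean was 4.63 ± 0.36 in deaf and 5.49 ± 0.94 in control rats, a difference of -0.86 (95% interval -1.67 to -0.06, adjusted p = 0.9999). This interval uses a spread estimated from all 4 groups together, which was narrower than the right control SD of 0.94. The mean of both sides differed by -0.74 (SE 0.261, 95% interval -1.31 to -0.17, unadjusted p = 0.0151, limma adjusted p = 0.998). The size of this difference was exceeded by 1 of 18166 genes. Its p-value counts left and right arrays as independent, although they may come from the same rats. The spread of Slc5a7 was also wide: the residual SD was 0.54, and 99.8% of genes had a smaller one. No detection calls were used, so Slc5a7, Slc18a3 and Chat values cannot be placed above or below background, and no fold is given for them. The means ran from low to high as right deaf, left deaf, left control and right control. The deaf means were 0.04 apart and the control means 0.20 apart, both within their spread.

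The size of the Slc5a7 difference rested on single control arrays. The right difference was -0.40 without right control 1 and -1.35 without right control 3 (adjusted p = 0.898). On the left it was -0.42 without left control 1. Without both arrays numbered 1 of the control rats, an alternative chosen after seeing the data, it was -0.42 on the left, -0.40 on the right and -0.41 in the mean of both sides. The direction was the same in all of these fits.

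Slc18a3 (Entrez Gene 60422) encodes the vesicular acetylcholine transporter, which fills synaptic vesicles. In the left colliculus it was at 4.08, 4.20 and 3.92 in deaf rats, against 4.91, 4.18 and 4.28 in control rats. These groups overlapped, left control 1 being well above the rest. In the right colliculus it was at 4.22, 4.03 and 4.11 in deaf rats, against 5.56, 4.46 and 4.30 in control rats. All 3 right deaf arrays lay below all 3 right control arrays, and right control 1 was again the highest of the 12.

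The Slc18a3 mean was 4.07 ± 0.14 in left deaf and 4.46 ± 0.40 in left control rats, a difference of -0.39 (SE 0.281, limma adjusted p = 0.9996). The right mean was 4.12 ± 0.09 in deaf and 4.77 ± 0.69 in control rats, a difference of -0.66 (95% interval -1.27 to -0.04, adjusted p = 0.9999). Here too the interval uses the spread of all 4 groups together, which was narrower than the right control SD of 0.69. The mean of both sides differed by -0.52 (SE 0.199, unadjusted p = 0.0225, limma adjusted p = 0.998), a size exceeded by 12 of all genes. Its residual SD was 0.41, above that of 98.5% of genes. The difference was -0.16 on the left without left control 1. On the right it was -0.26 without right control 1, and in the mean of both sides it was -0.32 without that array. Without both arrays it was -0.16 on the left, -0.26 on the right and -0.21 in the mean. From low to high the means ran left deaf, right deaf, left control and right control, and the deaf means were 0.05 apart.

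Chat (Entrez Gene 290567), which encodes the enzyme that makes acetylcholine, was at 4.72, 4.58 and 4.62 in left deaf rats, against 4.79, 4.57 and 4.81 in left control rats. In the right colliculus it was at 4.56, 4.49 and 4.67 in deaf rats, against 4.89, 4.66 and 4.65 in control rats. The groups overlapped on both sides. The differences were -0.08 on the left (SE 0.099) and -0.16 on the right (SE 0.099), and their mean was -0.12 (95% interval -0.28 to 0.03, limma adjusted p = 0.998). Its residual SD of 0.11 was smaller than that of most genes, with 28.3% of genes below it. The left difference was -0.04 without left control 3 and -0.16 without left control 2, and the right difference was -0.08 without right control 1.

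**Figure D1:**
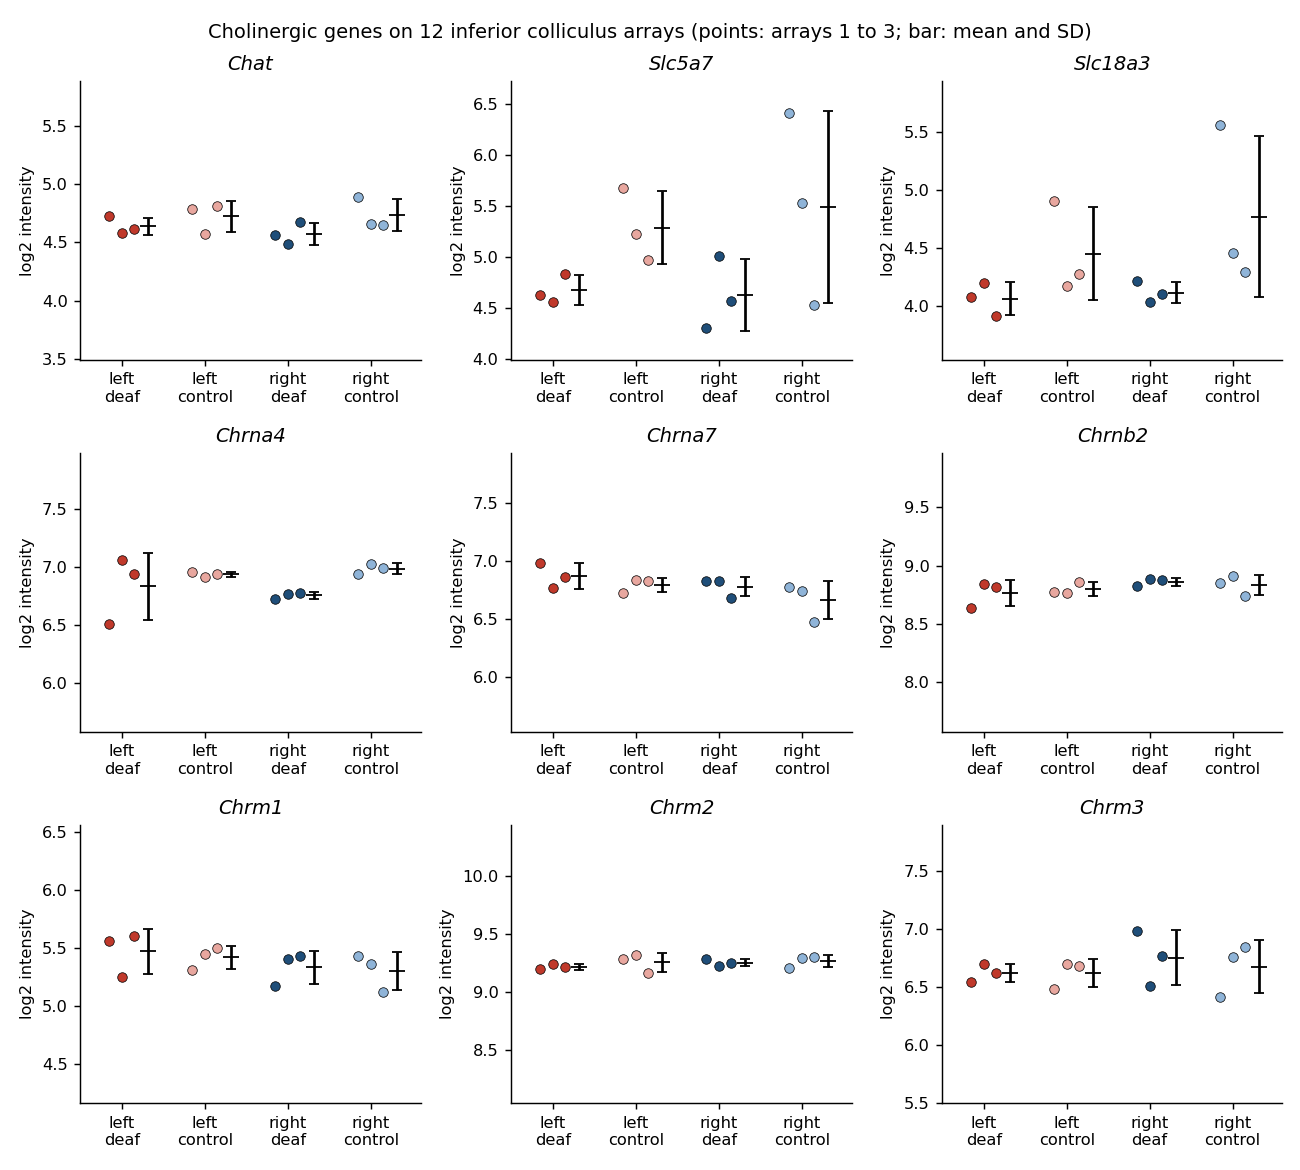
Log2 intensity of the 9 measured cholinergic genes on each array, with left deaf, left control, right deaf and right control from left to right in each panel; points are arrays and the bar beside them is the mean and SD of 3 arrays. The panels have their own ranges. Slc5a7 and Slc18a3 are highest on right control 1, at 6.41 and 5.56. The receptor genes' groups lie closer together, although the right deaf and right control arrays of Chrna4 do not overlap.

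Over the 12 arrays Slc5a7 and Slc18a3 had a Pearson r of 0.845 (permutation p = 0.00211, adjusted over 36 gene pairs 0.0760) and a Spearman rho of 0.385 (permutation p = 0.217, adjusted 0.521). Without right control 1 and left control 1, the arrays farthest from the Slc5a7 median, r was 0.313, so that the relation rested on those arrays. For deviations from the group means, with those arrays kept in, r was 0.752. Chat and Slc18a3 had r of 0.737 (permutation p = 0.00455, adjusted 0.0819), rho of 0.545 (permutation p = 0.0693, adjusted 0.357), r of 0.487 without right control 1 and right deaf 2, and r of 0.671 for the deviations. Of the 36 pairs, 0 passed an adjusted p of 0.05. The permutations moved arrays across all 4 groups, so these p-values also take in differences between the groups.

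Markers of other cells were read on the same arrays. All 3 markers of noradrenergic neurons, Dbh, Th and Slc6a2, had lower means in deaf rats on both sides, with a median difference of -0.19 on the left and -0.38 on the right. Their summed log2 level was 14.33 to 15.85 in left deaf arrays, against 14.80 to 17.46 in left control arrays. It was 14.86 to 16.02 in right deaf arrays, against 15.27 to 17.88 in right control arrays. The 2 highest sums were those of right control 1 and left control 1. Dbh, the gene of the enzyme that makes noradrenaline, was at 4.26, 4.51 and 4.95 in left deaf rats, against 5.61, 5.20 and 4.58 in left control rats. On the right it was at 4.51, 4.72 and 4.995 in deaf rats, against 5.96, 4.95 and 4.61 in control rats.

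Of 5 cranial motor neuron markers, 3 were measured. They had 2 lower means and 1 higher in deaf rats on the left (median -0.0065) and 3 lower on the right (median -0.18). Their summed log2 level was 14.31 to 15.18 in left deaf arrays, against 14.97 to 15.02 in left control arrays, and 14.05 to 15.09 in right deaf arrays, against 14.97 to 15.56 in right control arrays. Prph, an intermediate filament gene of motor neurons, differed by -0.39 (left) and -0.58 (right). Calca, the gene of a neuropeptide, differed by 0.20 (left) and -0.18 (right). For the tegmental cholinergic nuclei the 3 markers were Nos1, Uts2 and Tac1. In deaf rats they had 2 lower means and 1 higher on the left (median -0.06). On the right 1 was lower and 2 were higher (median 0.04). They summed to 17.86 to 18.35 in left deaf arrays, against 17.96 to 18.50 in left control arrays. The sums were 17.92 to 18.39 in right deaf arrays, against 18.06 to 18.55 in right control arrays. These sums overlapped on both sides. For cerebellar genes, 8 of 9 were lower in right deaf than in right control rats, with a median difference of -0.56. The cerebellar sum of right control 3, whose Slc5a7 was 4.53, was 52.57, and that of right control 1, whose Slc5a7 was 6.41, was 48.10. Oligodendrocyte markers were lower in deaf rats for 4 of 5 genes on the left and 5 of 5 on the right. Their sum was 50.75 to 51.32 in left deaf arrays, against 51.40 to 51.62 in left control arrays, which did not overlap. It was 50.99 to 51.65 in right deaf arrays, against 51.62 to 52.28 in right control arrays, highest in right control 1.

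Of 3 serotonergic markers, 3 had higher means in deaf rats on both sides (median 0.17 on the left and 0.12 on the right). Their sum was 15.47 to 20.45 in left deaf arrays, against 15.58 to 17.48 in left control arrays. It was 15.13 to 19.47 in right deaf arrays, against 14.86 to 19.91 in right control arrays, where right control 1 was highest. Meningeal genes had higher means in deaf rats for 7 of 7 on the left (median 0.38) and 3 of 7 on the right (median -0.0057). Their sum was 44.43 to 49.99 in left deaf arrays, against 41.80 to 45.90 in left control arrays. Astrocyte genes were lower in deaf rats for 4 of 5 on the left (median -0.04) and 5 of 5 on the right (median -0.06). The sums of both lists overlapped between deaf and control arrays on both sides. The part of all these markers in the differences of Slc5a7 and Slc18a3 was not tested.

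**Figure D2:**
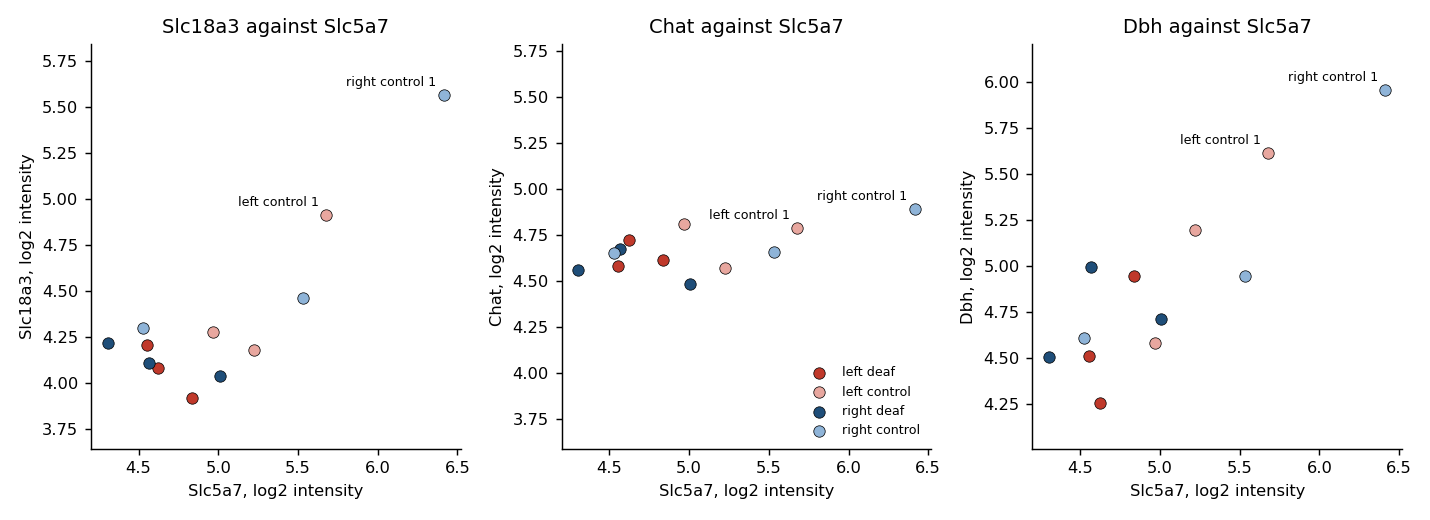
Log2 intensity of Slc18a3, Chat and Dbh (y axes, of equal span) against Slc5a7 (x axes) on the 12 arrays, coloured by group. Right control 1 and left control 1 lie at the upper right for Slc18a3 and Dbh, and Chat spans a narrower range.

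Chrna4 and Chrnb2 encode the subunits of the main high-affinity nicotinic receptor of the brain. Chrna4 (Entrez Gene 25590) was at 6.72, 6.77 and 6.77 in right deaf rats, against 6.93, 7.03 and 6.99 in right control rats. All 3 deaf arrays were lower and both groups were tight. The mean was 6.75 ± 0.03 in right deaf and 6.98 ± 0.05 in right control rats, a difference of -0.23 (SE 0.118, limma unadjusted p = 0.0748, adjusted p = 0.9999). On the left it was at 6.51, 7.05 and 6.94 in deaf rats, against 6.96, 6.91 and 6.94 in control rats. The left groups overlapped, and the difference of -0.10 (SE 0.118) was 0.06 without left deaf 1. The mean of both sides differed by -0.17 (95% interval -0.35 to 0.02), and by -0.08 without left deaf 1.

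Arrays of deaf and control rats did not overlap for 1 of the 9 genes on the left, Slc5a7, and for 2 on the right, Slc18a3 and Chrna4, lower in deaf rats each time. Among all genes the arrays lay apart with deaf rats lower in 5.70% on the left and in 3.84% on the right, and they lay apart in either direction in 10.3% and 7.48%. Over both sides together, 0 of the 9 had all 6 deaf arrays apart from all 6 control arrays, and 0.270% of all genes did so in either direction. An exact permutation test of 3 arrays against 3 cannot give a two-sided p below 0.1.

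Chrnb2 (Entrez Gene 54239) was at 8.63, 8.84 and 8.81 in left deaf rats, against 8.77, 8.76 and 8.86 in left control rats. Right values were 8.82, 8.89 and 8.88 in deaf rats, against 8.85, 8.91 and 8.74 in control rats. The groups overlapped on both sides. The differences were -0.04 on the left (0.028 without left deaf 1) and 0.03 on the right (-0.017 without right control 3), and the 95% interval for the mean of both sides ran from -0.13 to 0.12. The mean difference itself, -0.0035, was of either sign in the fits that left out 1 array. Its residual SD was 0.077, with 9.40% of genes below it.

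Chrna7 (Entrez Gene 25302) encodes the subunit of the calcium-permeable nicotinic receptor that forms from a single subunit type. It was at 6.99, 6.76 and 6.86 in left deaf rats, against 6.73, 6.83 and 6.83 in left control rats. On the right it was at 6.83, 6.83 and 6.68 in deaf rats, against 6.78, 6.74 and 6.48 in control rats. Both pairs of groups overlapped, and the means were higher in deaf rats on both sides, by 0.07 on the left (SE 0.099) and 0.12 on the right (SE 0.099). The mean of both sides differed by 0.10 (95% interval -0.06 to 0.25, limma adjusted p = 0.998). From low to high the means ran right control, right deaf, left control and left deaf. The right control mean lay below all 3 right deaf arrays, although the arrays of these groups overlapped. The left difference was 0.017 without left deaf 1, and the right difference 0.022 without right control 3.

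**Figure D3:**
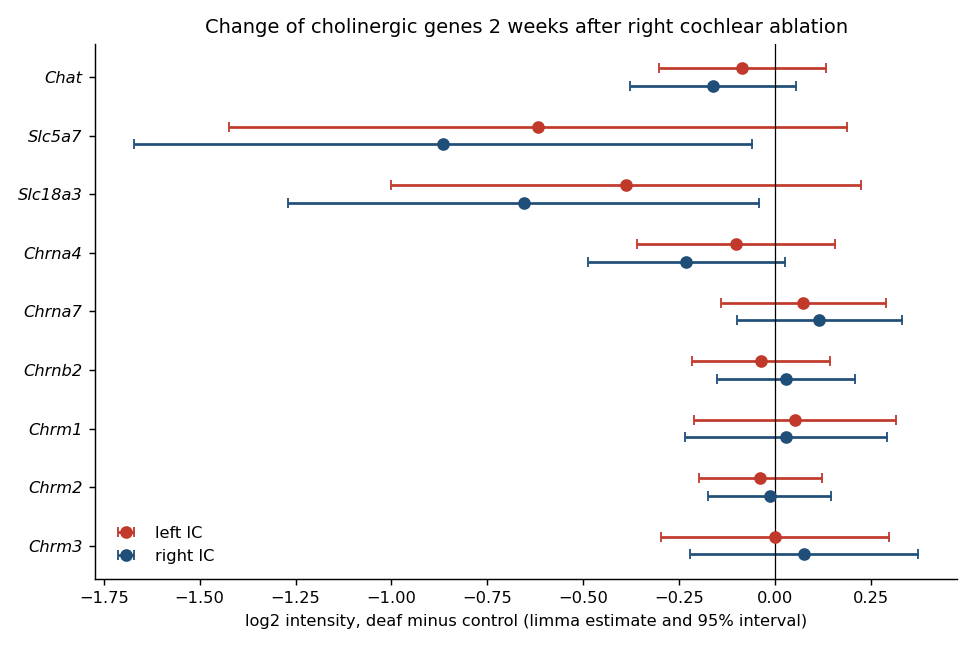
Deaf minus control difference in log2 intensity for each of the 9 genes (x axis), with the limma estimate as a point and its 95% interval as a line, for the left colliculus (red) and the right colliculus (blue). The intervals of Slc5a7 and Slc18a3 are the widest, and on the right they end at -0.06 and -0.04. Those of the receptor genes all include 0. Each gene's intervals use a spread estimated from all 4 groups together.

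Chrm2 (Entrez Gene 81645), whose receptor acts through inhibitory G proteins and serves as an autoreceptor on cholinergic terminals, varied least of the 9 genes. It was at 9.20, 9.25 and 9.21 in left deaf rats, against 9.28, 9.32 and 9.16 in left control rats. Right values were 9.28, 9.23 and 9.25 in deaf rats, against 9.21, 9.29 and 9.31 in control rats. Its 12 values lay between 9.16 and 9.32, and 1.88% of genes had a smaller residual SD than its 0.053. The mean of both sides differed by -0.03 (95% interval -0.14 to 0.09, limma adjusted p = 0.998).

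Chrm1 and Chrm3 encode muscarinic receptors that act through phospholipase C. Chrm1 (Entrez Gene 25229) was at 5.56, 5.25 and 5.61 in left deaf rats, against 5.31, 5.45 and 5.50 in left control rats. On the right it was at 5.17, 5.40 and 5.43 in deaf rats, against 5.43, 5.36 and 5.12 in control rats. Its groups overlapped on both sides, and the mean of both sides differed by 0.04 (95% interval -0.15 to 0.23). That difference was -0.0048 without right control 3.

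Chrm3 (Entrez Gene 24260) was at 6.55, 6.70 and 6.62 in left deaf rats, against 6.49, 6.70 and 6.68 in left control rats. In the right colliculus Chrm3 was at 6.98, 6.51 and 6.77 in deaf rats, against 6.42, 6.76 and 6.85 in control rats. Its groups overlapped on both sides too. The difference was 0.00085 on the left and 0.08 on the right (-0.052 without right control 1 and -0.037 without right deaf 1), and the mean of both sides differed by 0.04 (95% interval -0.17 to 0.25).

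The 2 sides were also compared directly. The left change minus the right change was 0.25 for Slc5a7 (SE 0.522), 0.27 for Slc18a3 (SE 0.398), 0.13 for Chrna4 (SE 0.167) and -0.06 for Chrnb2 (SE 0.117), and none of the 9 passed (limma adjusted p = 0.9998 for these genes). The values for Slc5a7 and Slc18a3 were -0.22 and -0.13 without right control 1. Between the colliculi of the same rats' group, left minus right, Chrna7 differed by 0.09 in deaf and 0.13 in control rats, and Chrm1 by 0.14 in deaf and 0.11 in control rats. The corresponding values were 0.04 in deaf and -0.20 in control rats for Slc5a7, and -0.05 in deaf and -0.32 in control rats for Slc18a3. For either transporter the left-right difference in control rats was positive without right control 1, at 0.26 and 0.08. No gene of the 9 was called for left against right, and 0% of all genes were called. The left and right arrays of the 9 genes overlapped in deaf rats (apart in 8.31% of all genes) and in control rats (9.80%).

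Taken as a list, the 9 genes had 6 lower and 3 higher means in deaf rats on the left, with a median difference of -0.04, against -0.0051 over all genes. On the right 5 were lower and 4 higher, with a median of -0.01, against 0.0014. Of all genes, 51.8% had lower means in deaf rats on the left and 49.5% on the right. As a side comparison, 9 of 14 serotonin receptor genes were lower on the left (median -0.04) and 3 of 14 on the right (median 0.07). For adrenergic receptors, 3 of 7 measured genes were lower on the left (median 0.03) and 1 of 7 on the right (median 0.08). With limma 0 of these receptor genes passed on either side.

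The wider acetylcholine pathway was read from 7 further lists with 55 genes, of which 50 were measured. In deaf rats 24 were lower and 26 higher on the left (median 0.0052), and 30 were lower and 20 higher on the right (median -0.02). With limma 0 of 50 passed in any comparison. At an unadjusted p under 0.05, 2 were lower and 1 higher on the left, where 3.69% of all genes passed in either direction. On the right 2 were lower and 1 higher (4.31% of all genes), and in the mean of both sides 4 were lower and 2 higher (4.53%). The left change minus the right change was negative for 1 and positive for 3 at that level (3.42%). Arrays of deaf and control rats did not overlap for 4 lower and 4 higher of the 50 genes on the left. Among all genes 10.3% lay apart there in either direction. On the right 4 lower and 2 higher lay apart (7.48% of all genes).

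By role, 5 of 13 other nicotinic subunit genes were lower on the left and 7 of 13 on the right. Both other muscarinic receptor genes, Chrm4 and Chrm5, had lower means on both sides, with a median of -0.09 on the left and -0.06 on the right. The list of choline supply also held the esterase gene Bche. Among its 11 measured genes, including the choline kinases and the choline transporter-like Slc44 family, 7 were lower on the left and 5 on the right. Of 2 esterase anchor genes, Colq and Prima1, 1 was lower on the left and 2 on the right. Receptor chaperones and modulators split 4 and 4 on each side. Among 10 muscarinic effectors, 5 were lower on the left and 8 on the right, with medians of -0.0029 and -0.04. All 4 measured transcription factor and neurotrophin receptor genes of cholinergic neurons were higher on the left (median 0.21) and 2 of 4 on the right (median 0.10).

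The other pathway genes named here had the smallest unadjusted p in a comparison, and none passed. Genes picked in this way tend to have arrays that lie apart, so their separation is a description only. Rgs4, a regulator that shortens G protein signalling, was at 7.39, 7.41 and 7.48 in left deaf rats, against 7.79, 7.96 and 7.77 in left control rats. All 3 left deaf arrays were lower, by 0.41 on average (difference -0.41, SE 0.099, unadjusted p = 0.0013, limma adjusted p = 0.986). On the right its means were 7.78 ± 0.02 in deaf and 7.71 ± 0.19 in control rats, and the difference between the sides' changes was -0.48 (SE 0.139, adjusted p = 0.9998). Chrna3, a nicotinic subunit of autonomic ganglia and the habenula, was at 5.25, 5.42 and 5.46 in left deaf rats, against 5.79, 5.85 and 5.51 in left control rats. These groups did not overlap, and the difference was -0.34 (SE 0.116, limma adjusted p = 0.9996).

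Chrne, the subunit of the adult muscle receptor, was at 4.40, 4.63 and 4.61 in right deaf rats, against 4.78, 5.34 and 4.89 in right control rats. The groups did not overlap, and the difference was -0.46 (SE 0.133, limma adjusted p = 0.9999). On the left it was 0.05, and the sides' changes differed by 0.50 (SE 0.187, adjusted p = 0.9998). Rapsn, which clusters muscle receptors, differed by -0.57 on the right (SE 0.218) and 0.18 on the left, and Colq, which anchors acetylcholinesterase in muscle, by -0.25 on the right (SE 0.120). Chrna9, a subunit of the receptor of cochlear hair cells, differed by 0.34 on the left (SE 0.131) and -0.14 on the right.

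Isl1, a transcription factor gene of cholinergic and motor neurons, was at 4.66, 4.41 and 4.40 in left deaf rats, against 4.22, 4.41 and 4.24 in left control rats. In the right colliculus Isl1 was at 4.38, 4.48 and 4.36 in deaf rats, against 4.18, 4.01 and 4.26 in control rats. The right groups did not overlap, and the left groups did. The mean of both sides was 0.23 higher in deaf rats (SE 0.071, unadjusted p = 0.0083, limma adjusted p = 0.998). Gbx1, a homeobox gene of forebrain cholinergic neurons, was 0.24 higher (SE 0.097), with the same adjusted p.

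**Figure D4:**
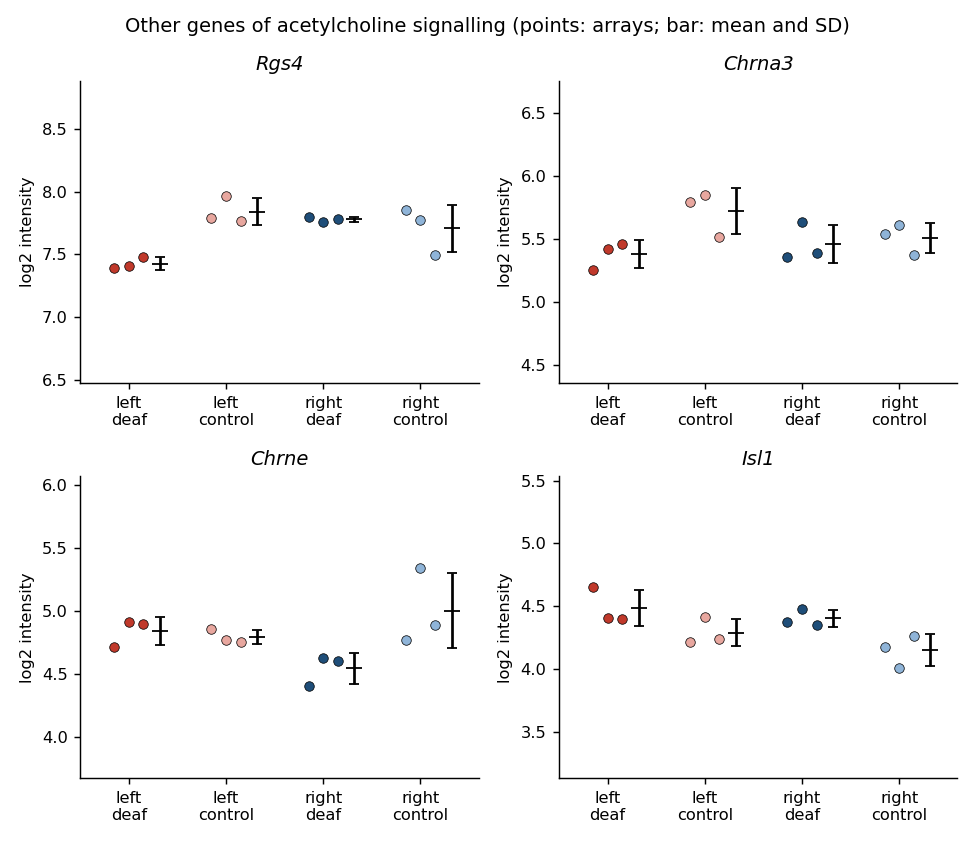
Log2 intensity of Rgs4, Chrna3, Chrne and Isl1 on each array, with left deaf, left control, right deaf and right control from left to right; points are arrays and the bar is the mean and SD of 3 arrays. The genes were picked by their small unadjusted p. Left deaf arrays lie below left control arrays for Rgs4 and Chrna3, and right deaf arrays below right control arrays for Chrne. These differences did not pass the test over all genes.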

How the data were processed

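Total RNA was measured on 12 biotin-labelled Affymetrix arrays, per the labels' protocols. The authors deposited log2 intensities (summarisation, normalization and array build not given in the sources used here). Values ran from 1.33 to 13.1, with a median of 5.34 over all probes and arrays, and detection calls were not used here. Of 29489 probes, 18511 had 1 symbol, 575 several and 10403 none; the brightest probe per gene gave 18166 genes.

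The R package limma 3.58.1 (R 4.3.3) fitted 4 group means to all arrays (8 residual degrees of freedom). Each gene's spread was estimated from all 4 groups together. Two-sided p-values were adjusted over all genes by Benjamini-Hochberg, with a threshold of 0.05. The fit was tested on simulated data. The genes and lists were chosen with earlier results of these data known. Outside the 9 genes, pathway genes were named by the smallest unadjusted p, up to 4 per comparison. The labels do not say what a replicate number marks, so replicate numbers were not used as pairs. Deviations of same-numbered arrays correlated at -0.193 to 0.159 over all pairs of groups. Between left and right arrays of the same treatment they correlated at -0.056 to 0.149. Correlations used 100000 permutations. Promoter windows came from RefSeq, GRCr8, and were found for all 10 genes. The number of arrays limits the precision. Alternatives were quantile normalization, median centring, a level filter, probe rules, a variance trend, array weights, fewer groups, replicate blocks, another threshold and leaving out arrays.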

Additional observations from a re-analysis of the deposited data

How the results depend on the processing

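Of the 9 genes, 0 passed the threshold in any of the 6 comparisons under any alternative run, and the lowest adjusted p in any of them was 0.581, without right control 1. Of all genes, 0 were called in each comparison in the fit reported. The count was 1 among genes above the median level for deaf minus control on the left and for left minus right in deaf rats. With a variance trend and robust estimation it was 1 and 2 for these comparisons. With the replicate block it was 1 for the left change minus the right change and 1 for left minus right in control rats. At an adjusted p threshold of 0.1 it was 1 for the left change minus the right change. With 1 array left out it ranged from 0 to 1 for deaf minus control on the left and for the mean of both sides, and without left and right control 1 together it was 1 for deaf minus control on the right. The cause of these shifts was not tested. The replicate block and the replicate block within treatment changed no sign and no call of the 9 genes; with the replicate block the mean difference of both sides was -0.74 for Slc5a7 and -0.52 for Slc18a3 (adjusted p = 0.998 for both), and the consensus correlation within treatment was 0.036. Quantile normalization, median centring, both probe rules, the level filter (run for the 5 genes above it), the variance trend and the fit to only the groups compared (run for 4 comparisons) turned no sign.

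Signs turned under array weights for deaf minus control on the right -0.0067 for Chrnb2 and -0.015 for Chrm1, left minus right in control rats 0.037 for Chat. Without left and right control 1 together, an alternative chosen after the data were seen, they turned for deaf minus control on the left -0.0023 for Chrm1 and -0.066 for Chrm3, deaf minus control on the right -0.052 for Chrm3, deaf minus control in the mean of both sides -0.059 for Chrm3, left minus right in control rats 0.037 for Chat and 0.066 for Slc5a7, the left change minus the right change -0.021 for Slc5a7 and -0.096 for Chrm1 and 0.021 for Chrm2. When single arrays were left out, in 12 fits, the differences whose sign turned in at least 1 fit ranged as follows. For deaf minus control on the left, Chrm1 from -0.014 to 0.16, Chrm3 from -0.066 to 0.040, Chrna4 from -0.21 to 0.062, Chrnb2 from -0.075 to 0.028. For deaf minus control on the right, Chrm1 from -0.062 to 0.11, Chrm2 from -0.044 to 0.0057, Chrm3 from -0.052 to 0.20, Chrnb2 from -0.017 to 0.066. For deaf minus control in the mean of both sides, Chrm1 from -0.0048 to 0.096, Chrm3 from -0.026 to 0.10, Chrnb2 from -0.026 to 0.028. For left minus right in control rats, Chat from -0.053 to 0.070, Chrm2 from -0.043 to 0.035, Chrm3 from -0.18 to 0.032, Chrnb2 from -0.079 to 0.0029, Slc18a3 from -0.56 to 0.076, Slc5a7 from -0.68 to 0.26. For left minus right in deaf rats, Chrna4 from -0.031 to 0.24, Slc18a3 from -0.12 to 0.023, Slc5a7 from -0.12 to 0.24. For the left change minus the right change, Chat from -0.0029 to 0.13, Chrm1 from -0.059 to 0.13, Chrm2 from -0.070 to 0.0078, Chrm3 from -0.20 to 0.053, Chrna7 from -0.099 to 0.052, Slc18a3 from -0.13 to 0.51, Slc5a7 from -0.22 to 0.73. The differences of Slc5a7, Slc18a3, Chat and Chrna7 between deaf and control rats turned no sign in these fits, but those of Chat ranged from -0.16 to -0.041 on the left and from -0.21 to -0.082 on the right, and those of Chrna7 from 0.017 to 0.13 and from 0.022 to 0.17. Without detection calls, low values such as those of Chat, Slc18a3 and Slc5a7 cannot be placed above or below background.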

Other observations

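The genes most like each cholinergic gene over the 12 arrays, among genes with a mean level above the median, are given as a description without a test, since the arrays share groups and tissue composition. For Slc5a7 they were Tmod3 (Pearson r 0.951), Enpp1 (0.918) and Lman2 (0.918). For Slc18a3 they were Nefl, a neurofilament gene of large axons (0.913), Gmppa (0.909) and Mbp, a myelin gene (0.904). For Chat they were Sncg, a synuclein gene of brainstem and motor neurons (0.871), Sorbs3 (0.845) and Vps72 (0.819). Among receptor genes, Chrna4 was closest to Asb8 (0.895), Ywhaq (0.881) and Ccdc71 (0.868), Chrna7 to Abcc5 (0.973), Vwa8 (0.931) and Fbxo3 (0.923), and Chrnb2 to Brinp1 (0.940), Nop56 (0.934) and Nipsnap1 (0.915). Chrm1 was closest to Tab2 (0.902), Bphl (0.870) and Terf1 (0.865), Chrm2 to Srsf10 (0.883), Cpsf2 (0.857) and Zfp39 (0.856), and Chrm3 to Reln, a gene of an extracellular matrix protein (0.903), Try10 (0.899) and Rab1a (0.896).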
